A study of Mus musculus with 12 samples.

Results

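The 40 genes described here encode proteins of DNA replication and mitosis. They were chosen by name from a list of cell division genes and not by their values, but with earlier results of these data known. They fall into 17 S-phase members, which prepare or carry out DNA replication, and 23 mitotic members, which act from G2 to the end of mitosis. All 40 were found among the 38924 genes of the count tables and all 40 passed the filter of at least 10 counts in at least 3 mice, as did 20311 genes in all. RNA-Seq was conducted on the proximal colon of 6 APCMin/+ and 6 wild type (WT) female C57BL/6 mice, all 6 weeks old. APCMin/+ mice carry a germ-line truncating mutation in 1 copy of Apc and a normal other copy, and the study saw no adenomas at this age. The genotypes were housed in separate cages, so that genotype and cage cannot be told apart. The mice came in several shipments, and the labels do not give the shipment or a sequencing batch of a mouse, so values within batches could not be computed.

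The cell cycle copies the genome once and then parts the copies. In G1, Cdc6 and Cdt1 load the MCM helicase on replication origins, cyclin E and the E2F factors start S phase, and PCNA holds the DNA polymerases on the template. Later, cyclin A, cyclin B and Cdk1 drive the cell into mitosis, kinases such as Plk1, Aurora A and Aurora B build and check the spindle, and the anaphase-promoting complex with Cdc20 ends the phase by degrading the cyclins. In the colon, dividing cells lie in the lower crypt and stop dividing as they move towards the surface. APC is part of the complex that degrades beta-catenin and so restrains Wnt signalling, which sustains crypt cell division.

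Promoter sequences are shown for Cdt1, Cdk1, Plk1 and Cdc20, because S-phase and mitotic genes are known to use different promoter elements and because Cdt1, Plk1 and Cdc20 were among the members that varied most between mice. The windows run from 250 bases before to 50 bases after the annotated start, 5′ to 3′ on the strand of the gene, in RefSeq's annotation of GRCm38.p6. Cdt1 (the licensing factor that loads the MCM helicase) is at chr8:122567765-122568064 on the plus strand, Cdk1 (the mitotic kinase) at chr10:69352863-69353162 on the minus strand, Plk1 (a kinase of the spindle poles) at chr7:122159185-122159484 on the plus strand and Cdc20 (the activator of the anaphase-promoting complex) at chr4:118437294-118437593 on the minus strand. Capitals mark 3 kinds of letters on either strand, namely E2F letters (TTTCGCGC or TTTGGCGC), cell cycle homology region letters (TTTGAA or TTCGAA) and CCAAT.
Cdt1: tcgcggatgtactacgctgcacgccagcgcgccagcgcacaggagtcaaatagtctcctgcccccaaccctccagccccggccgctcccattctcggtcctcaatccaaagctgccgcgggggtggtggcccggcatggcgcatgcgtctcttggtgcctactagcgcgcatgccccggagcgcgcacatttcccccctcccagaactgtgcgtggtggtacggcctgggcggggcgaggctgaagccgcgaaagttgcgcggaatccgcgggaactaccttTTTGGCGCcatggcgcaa
Cdk1: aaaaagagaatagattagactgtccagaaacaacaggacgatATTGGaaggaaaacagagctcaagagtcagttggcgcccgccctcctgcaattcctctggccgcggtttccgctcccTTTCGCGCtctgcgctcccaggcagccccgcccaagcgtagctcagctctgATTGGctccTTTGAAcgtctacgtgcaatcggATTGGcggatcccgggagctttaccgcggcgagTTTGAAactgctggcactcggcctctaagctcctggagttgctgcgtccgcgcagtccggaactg
Plk1: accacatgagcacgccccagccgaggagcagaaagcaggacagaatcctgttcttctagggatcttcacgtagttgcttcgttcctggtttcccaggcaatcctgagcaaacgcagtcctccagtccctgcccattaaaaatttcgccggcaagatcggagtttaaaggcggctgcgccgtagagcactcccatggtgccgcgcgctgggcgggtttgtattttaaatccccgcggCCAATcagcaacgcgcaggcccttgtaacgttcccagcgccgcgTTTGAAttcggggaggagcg
Cdc20: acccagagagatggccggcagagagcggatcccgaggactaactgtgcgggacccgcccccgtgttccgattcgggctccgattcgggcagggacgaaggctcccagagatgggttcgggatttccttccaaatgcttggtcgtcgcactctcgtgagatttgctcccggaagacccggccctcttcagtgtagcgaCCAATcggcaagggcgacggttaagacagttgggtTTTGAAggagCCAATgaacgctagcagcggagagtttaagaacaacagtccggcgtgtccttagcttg
The Cdt1 window held 1 E2F match, 32 bases after the start, and neither of the other motifs. The Cdk1 window held 1 E2F match, 2 cell cycle homology region matches and 3 CCAAT boxes, whereas the Plk1 and Cdc20 windows each held 1 cell cycle homology region match and no E2F match.

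A promoter was listed for 32 of the 40 members, and the first listed window of each gene was searched. The others were Ccna2, Kif20a, Tpx2, Aurkb, Foxm1, Mcm4, Gins2 and Ccne2. E2F letters were found in 5 of 14 S-phase promoters (35.7%), in 1 of 18 mitotic promoters (5.56%) and in 0.833% of all 27025 promoters. Besides Cdt1, the S-phase genes with E2F letters were Mcm3, Mcm5, Mcm6 and Mcm7, subunits of the replicative helicase. Second windows were listed for Uhrf1, with 1 E2F match where its first had 0, and for Mcm7, with 0 where its first had 1. Cell cycle homology region letters went the other way, with 14 of 18 mitotic promoters (77.8%), 2 of 14 S-phase promoters (14.3%) and 19.4% of all promoters. CCAAT was present in 16 mitotic promoters (88.9%), 9 S-phase promoters (64.3%) and 37.9% of all promoters. The 3 kinds of letters do not contain each other. These are matches of letters, and no binding was measured.

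Levels per gene length were compared between genes as RPKM (counts scaled to gene length and library size), whose order depends on the deposited gene lengths. Pcna, the sliding clamp of the replication fork, had the highest mean RPKM of the members at 38.4, followed by the helicase subunit Mcm6 at 18.9 and the proliferation antigen Mki67 at 16.8 ± 1.87 in APCMin/+ and 15.4 ± 1.49 in WT mice (SD, n = 6). The lowest were the licensing factor Cdc6 at 1.23, the replication helicase component Gins2 at 1.43 and the G1/S transcription factor E2f1 at 1.45. The transcription factor of mitotic genes, Foxm1, was also low at 1.90. Gins2 and E2f1 are neighbours in this order whose ranges over mice overlapped, as the plot of levels shows. Depth did not limit these values, since the lowest count of any member in any mouse was 235.

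**Figure D1:**
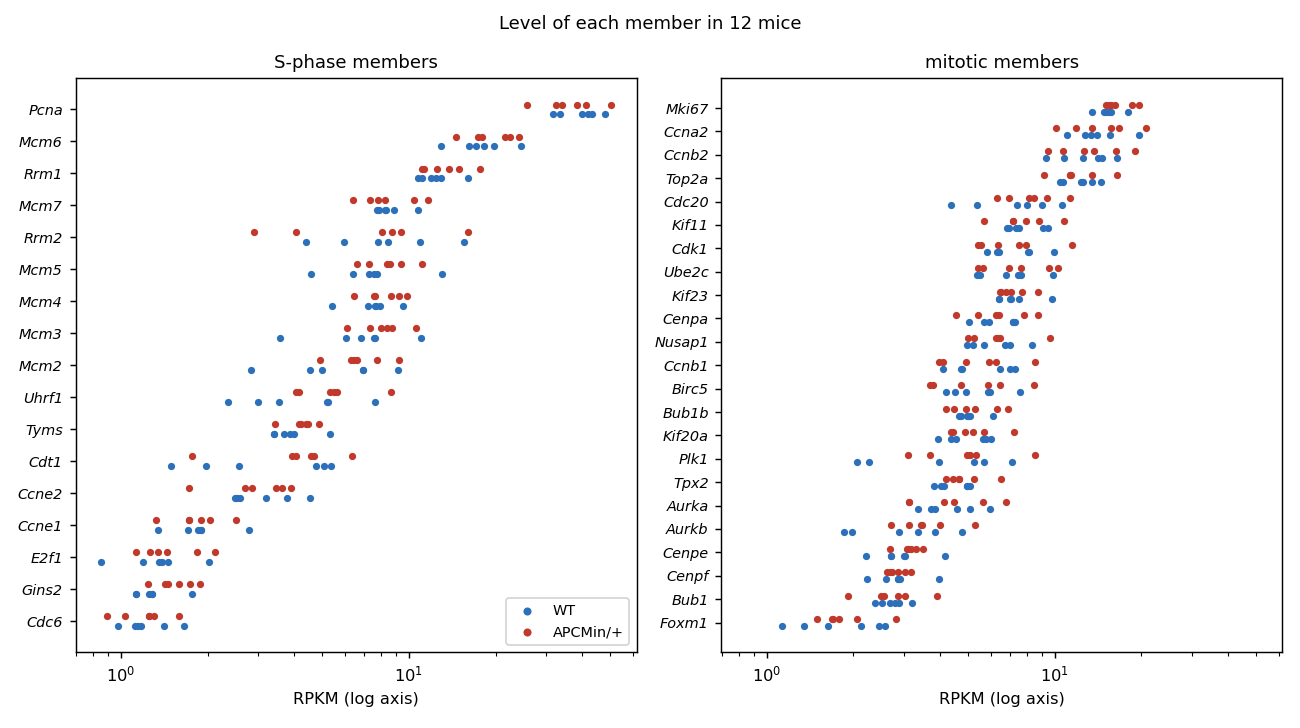
RPKM of each member in each of the 12 mice on a log axis, with S-phase members at left, mitotic members at right, and 1 point per mouse coloured by genotype. The members span mean RPKM values from 1.23 for Cdc6 to 38.4 for Pcna, and the points of the genotypes overlap for every member.

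The first question was whether expression of these genes differed between genotypes before adenomas appear. No member passed the thresholds in edgeR's quasi-likelihood test (an at least 2-fold change with an FDR below 0.05 after Benjamini-Hochberg adjustment), as was the case for 0 of the 20311 genes tested (0%). Unadjusted p-values under 0.05 were also found for 0 of the 40 members, against 3.46% of all genes tested in the direction of higher and 1.81% in the direction of lower expression in APCMin/+ mice. DESeq2 called 27 of the 20311 genes and edgeR's likelihood ratio test 15, with 0 members among them. Unadjusted p-values under 0.05 were given to 1316 and 1131 genes by these tests, respectively, and again to 0 members. For 0 members did the values of the genotypes not overlap, against 0.118% of all genes tested. The mean was higher in APCMin/+ mice for 28 members and lower for 12, and it was higher for 9837 of the 20311 genes tested. The log2 fold changes of the members spanned -0.12 to 0.31 (median 0.07), and the median of all genes tested was -0.01.

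The precision of these differences can be read from their 95% intervals. The interval lay within a 2-fold change in either direction for 39 of the 40 members and within 1.5-fold for 30, so that larger differences between the genotype means were outside the interval for these genes. The exception at 2-fold was Cdt1, with an interval from -0.49 to 1.01 on the log2 scale. Among all genes tested, 15535 of 20311 had an interval within 2-fold. In these bulk samples, fewer dividing cells and less RNA per cell cannot be told apart.

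**Figure D2:**
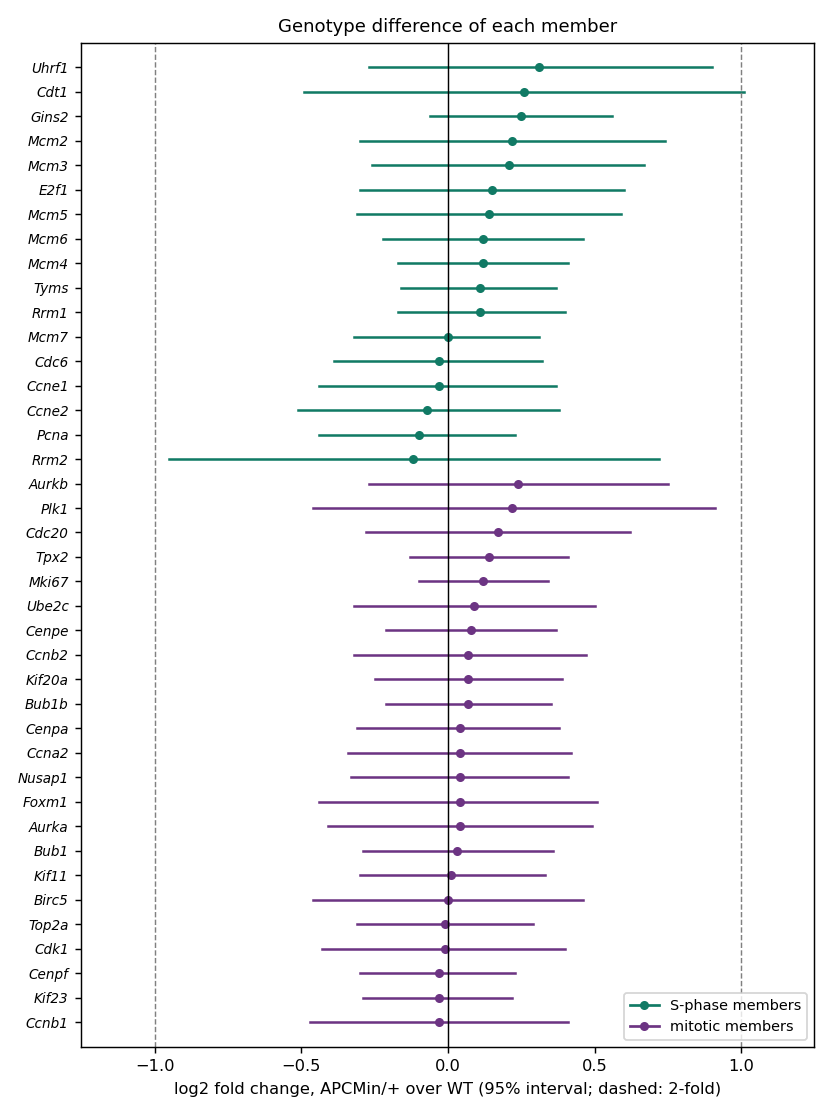
Log2 fold change of each member, APCMin/+ over WT, with its 95% interval from edgeR's quasi-likelihood fit on 6 mice per genotype, in green for S-phase and purple for mitotic members. All 40 intervals include 0, and only that of Cdt1 reaches past the dashed line at 2-fold.

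Among the proliferation marks, Mki67 (the antigen Ki-67, GRCm38 chromosome 7, 135689784 to 135716361) was counted at 152 to 197 CPM (counts scaled to library size) in APCMin/+ mice with a median of 160, and at 136 to 182 CPM in WT mice with a median of 154. It was the member that varied least, with an SD of 0.153 on the log2 scale over the 12 mice, against a median of 0.358 for all genes tested. Its log2 fold change was 0.12 ± 0.101 (SE, FDR = 0.910 in edgeR's quasi-likelihood test). Top2a, the topoisomerase that untangles replicated DNA, lay between 82.7 and 148 CPM in APCMin/+ mice with a median of 103, and between 93.4 and 130 CPM in WT mice with a median of 112. For both genes the lowest to highest values of the genotypes overlapped over most of their length.

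The mitotic kinase and its cyclins gave differences near 0. Cdk1 ranged from 18.6 to 39.5 CPM in APCMin/+ mice (median 23.9) and from 20 to 34.2 CPM in WT mice (median 24.9). Ccnb1, its main cyclin partner in mitosis, ranged from 16.8 to 36.1 CPM (median 22.9) and from 17.3 to 30.8 CPM (median 23.7), respectively. Ccna2, which acts in S phase and G2, ranged from 35.5 to 72.8 CPM (median 51.2) and from 38.6 to 68.9 CPM (median 48.1). The 2 highest APCMin/+ values of Cdk1 came from mouse M2_A and mouse M8_2, while mice M10_2 and M13_1 of the same genotype had the lowest values of all 12 mice. The log2 fold changes of Cdk1, Ccnb1 and Ccna2 were -0.01 ± 0.192, -0.03 ± 0.205 and 0.04 ± 0.177 (SE), each smaller than its standard error.

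Among the mitotic kinases, checkpoint and anaphase genes, Plk1 and Aurkb varied most. Plk1 ranged from 6.80 to 18.8 CPM in APCMin/+ mice (median 11) and from 4.54 to 15.6 CPM in WT mice (median 10.1), a 4.15-fold range over the 12 mice. The kinase of the chromosomal passenger complex, Aurkb, ranged from 7.94 to 15.6 CPM (median 10.1) and from 5.45 to 14.0 CPM (median 9.17), with a log2 fold change of 0.24 ± 0.236 (SE, FDR = 0.910, edgeR's quasi-likelihood test). The checkpoint kinase homologue Bub1b was steadier, at 17.9 to 29.4 CPM in APCMin/+ mice (median 21.7) and 19.9 to 26.0 CPM in WT mice (median 21.2). In all of these the spread within a genotype was larger than the difference between them. Cdc20 ranged from 11.8 to 21.0 CPM (median 15.5) and from 8.19 to 19.8 CPM (median 14.4). Ube2c, the ubiquitin-conjugating enzyme of the anaphase-promoting complex, ranged from 14.1 to 26.8 CPM (median 18.9) and from 14.0 to 25.7 CPM (median 18.5). Of the 40 members, Ube2c followed the mean of the others most closely over the 12 mice (Pearson r = 0.89, n = 12, as a description).

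Of the centromere and spindle genes, Cenpa, the histone variant that marks centromeres, ranged from 11.3 to 21.9 CPM in APCMin/+ mice (mean 16.4 ± 3.87, SD, n = 6) and averaged 15.9 ± 2.41 CPM in WT mice. Kif11, the motor that separates the spindle poles, ranged from 27.4 to 52.3 CPM (median 36.4) and from 32.9 to 45.7 CPM (median 35.8). The APCMin/+ range enclosed the WT range for both. Next to Mki67, the steadiest members were Kif23, a motor of cytokinesis, with an SD of 0.191 on the log2 scale, and Cenpf, a kinetochore protein, with an SD of 0.199. The values of Cenpf did not rise and fall with the mean of the other members over the 12 mice (r = 0.03, n = 12).

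The transcription factors were similar between genotypes. Foxm1 ranged from 8.23 to 15.5 CPM in APCMin/+ mice (median 9.59) and from 6.24 to 14.2 CPM in WT mice (median 10.3). E2f1 ranged from 3.57 to 6.72 CPM (median 4.41) and from 2.69 to 6.37 CPM (median 4.34). The log2 fold changes were 0.04 ± 0.219 for Foxm1 and 0.15 ± 0.210 for E2f1 (SE).

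Of the licensing genes, Cdt1 had the widest interval. Mcm2, a subunit of the replicative helicase, ranged from 16.6 to 31.2 CPM in APCMin/+ mice (median 22) and at 9.52, 15.2, 16.9, 23.4, 23.4 and 30.9 CPM in the WT mice. Cdc6 ranged from 4.68 to 8.29 CPM (median 6.54) and from 5.10 to 8.68 CPM (median 6.06). Cdt1 ranged from 3.88 to 13.9 CPM (median 9.46) and from 3.27 to 11.7 CPM (median 8.02). The 3 lowest Cdt1 values came from mice M17_1 and M18_2a of the WT group and M2_A of the APCMin/+ group, which were the mice with the highest mitochondrial share of counts. The log2 fold change of Cdt1, 0.26 ± 0.347 (SE, FDR = 0.911, edgeR's quasi-likelihood test), was among the 3 largest of the members. Uhrf1, which brings DNA methyltransferase to replicated DNA, had the largest at 0.31 ± 0.271 (FDR = 0.910, the same test), with 17.3 to 36.9 CPM in APCMin/+ mice (median 23.1) and 9.99 to 32.3 CPM in WT mice (median 18.6). Gins2 had the lowest unadjusted p of the members, 0.102 (FDR = 0.908, edgeR's quasi-likelihood test), with 5.10 to 7.69 CPM in APCMin/+ mice (median 6.24), 4.63 to 7.25 CPM in WT mice (median 5.17) and a log2 fold change of 0.25 ± 0.143 (SE). Here 5 of the 6 WT values lay between 4.63 and 5.26 CPM and mouse M18_b was at 7.25 CPM.

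At the fork, Pcna ranged from 61.8 to 121 CPM in APCMin/+ mice (median 87.0) and from 76.0 to 116 CPM in WT mice (median 98.2). Tyms, which makes thymidylate, ranged from 20.8 to 29.6 CPM (median 26.3) and from 20.7 to 32.5 CPM (median 23.1). Without the WT mouse M18_b, the log2 fold changes were 0.37 ± 0.123 for Gins2 and 0.22 ± 0.0955 for Tyms (SE), both with an unadjusted p under 0.05 in the same test, where no member had an FDR below 0.896. Ccne1, a cyclin of the G1/S transition, ranged from 3.51 to 6.69 CPM (median 4.83) and from 3.57 to 7.43 CPM (median 4.98).

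Rrm2, the regulated subunit of ribonucleotide reductase (GRCm38 chromosome 12, 24708241 to 24714146), varied most of all members, with an SD of 0.750 on the log2 scale and a 5.53-fold range over the 12 mice. Its values lay between 8 and 44.2 CPM in APCMin/+ mice (median 23.2) and between 12.2 and 43.3 CPM in WT mice (median 22.5), with a log2 fold change of -0.12 ± 0.387 (SE). The 2 lowest values were those of APCMin/+ mice M10_2 (8 CPM) and M13_1 (11.2 CPM), the highest those of M8_2 (44.2 CPM) and of the WT mouse M18_b (43.3 CPM). Its partner subunit Rrm1 spanned a 1.63-fold range. Next to Rrm2, the largest SDs were those of Cdt1 (0.698) and Plk1 (0.617). Of the 40 members, 25 had a smaller SD than the median gene tested, and 20 a more than 2-fold range over the 12 mice.

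The mean log2 CPM over the 40 members was taken as a proliferation index of each mouse. In APCMin/+ mice the index was 4.09 in M10_2, 4.30 in M13_1, 4.31 in M18_2b, 4.42 in M20_1, 4.59 in M2_A and 4.71 in M8_2. In WT mice it was 4.16 in M18_2a, 4.19 in M17_1, 4.26 in M17_2, 4.28 in M16_1, 4.31 in M19_1 and 4.75 in M18_b. The mouse with the highest index was thus WT and the one with the lowest APCMin/+, and 5 of the 6 WT values lay within the APCMin/+ range. The means were 4.41 ± 0.223 in APCMin/+ and 4.33 ± 0.216 in WT mice (SD, n = 6), a difference of 0.08 that was smaller than the SD of either group and that turned to -0.07 when the index was taken relative to the mean log2 CPM of 7 epithelial markers. The mean log2 CPM of these markers was 9.25 in the WT mouse M17_1 and 9.68 to 10.19 in the other WT mice. Their log2 fold changes spanned -0.05 to 0.53, the largest being that of Cdh1. Their transcripts were also richer in G and C, with a median GC content of 56.4% against 48.1% for the members. Whether the change of sign rests on M17_1, Cdh1 or GC content was not tested. No p-value is given for the index, because its members were listed with results of these data known. Over all 12 mice the index spanned 0.66, equal to a 1.58-fold range.

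**Figure D3:**
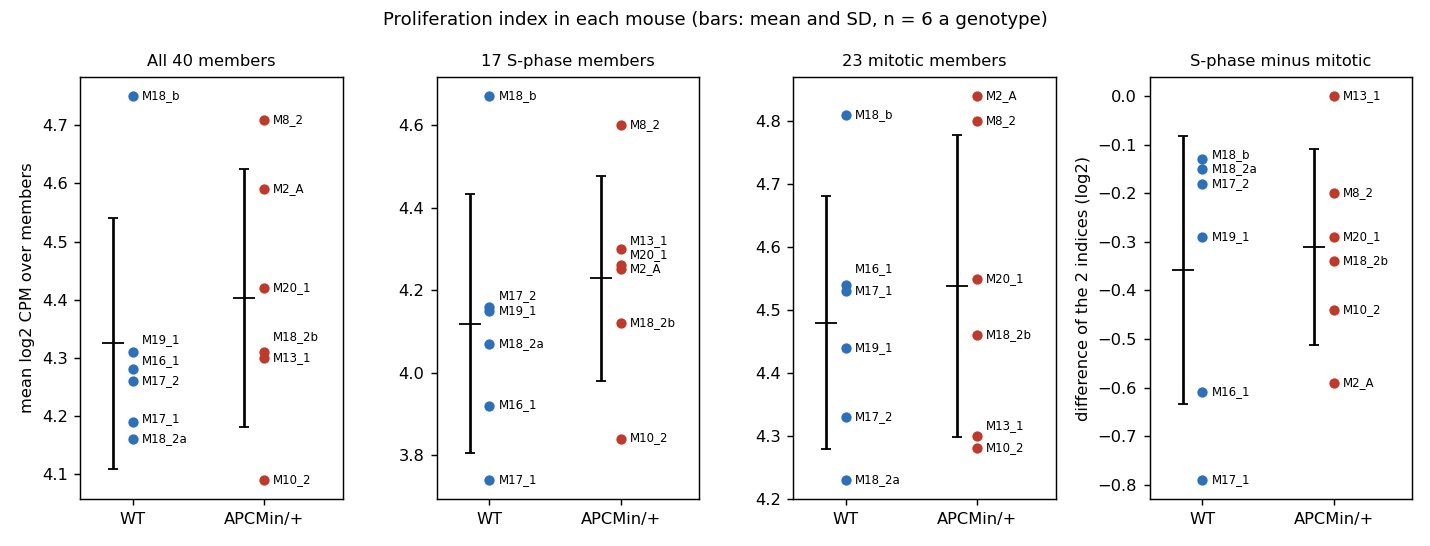
Mean log2 CPM of all 40, the 17 S-phase and the 23 mitotic members, and the difference of the last 2 indices, in each mouse by genotype, with the group mean and SD (n = 6) as a black bar. The WT mouse M18_b sits at 4.75 in the first panel, apart from the other WT mice between 4.16 and 4.31.

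Single mice moved the index difference of 0.08 in both directions. Without the APCMin/+ mouse M8_2 it was 0.02 and without M2_A 0.04, with the scaling of the 12 mice kept. Without M18_b it was 0.17 and the SD of the index in WT mice was 0.0625 in place of 0.216, with the scaling of the 12 mice kept. With the other 11 libraries scaled anew, these values were 0.18 and 0.098, and 37 of the 40 members had a higher mean in APCMin/+ mice. APCMin/+ mice M10_2 and M13_1 stood apart in another respect, with summed CPM of the posterior genes Hoxa13, Hoxb13 and Hoxd13 at 467 and 545, while all other mice lay between 0.976 and 2.86. Without both, and with the others scaled anew, the index difference was 0.18 and the median log2 fold change of the members 0.16, with 39 of 40 means higher, 0 members called and 0 with an unadjusted p under 0.05 in edgeR's quasi-likelihood test, where the FDR of every member was 1. Without M2_A, which had the highest value of 18 of the 40 members, the median log2 fold change was 0.00. The members rose and fell together over the mice (median r = 0.68 of a member with the mean of the others). These counts of higher means are therefore not counts of independent genes.

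S-phase and mitotic members were then compared. The S-phase index was 4.23 ± 0.247 in APCMin/+ and 4.12 ± 0.315 in WT mice (SD, n = 6), a difference of 0.11. The mitotic index was 4.54 ± 0.241 and 4.48 ± 0.200, respectively, a difference of 0.06. Relative to the epithelial markers these differences were -0.04 and -0.09. Among S-phase members 11 of 17 had a higher mean in APCMin/+ mice with a median log2 fold change of 0.12, and among mitotic members 17 of 23 with a median of 0.04, against -0.01 for all genes tested. The 5 largest log2 fold changes among the S-phase members were those of Uhrf1, Cdt1, Gins2, Mcm2 and Mcm3.

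Within a mouse, the S-phase index minus the mitotic index ranged from -0.79 in the WT mouse M17_1 to 0.00 in the APCMin/+ mouse M13_1. Values of -0.61 and -0.59 were found in M16_1 (WT) and M2_A (APCMin/+), and all others lay between -0.44 and -0.13. The mean was -0.31 ± 0.202 in APCMin/+ and -0.36 ± 0.277 in WT mice (SD, n = 6), a difference of 0.05 that was -0.04 without M17_1. The plasma cell markers Jchain, Sdc1, Mzb1 and Tnfrsf17 moved against this contrast (r = -0.75 on their mean log2 CPM, n = 12, the strongest of 14 marker lists). Their summed CPM was 203 in M13_1 and 897, 776 and 920 in M17_1, M16_1 and M2_A, and it lay between 271 and 466 in the other mice. Sdc1 ranged from 114 to 201 CPM over the 12 mice and Jchain from 48.7 to 772 CPM, so that the low sums were in large part Sdc1. The mitochondrial share of counts also moved against the contrast (r = -0.69, rho = -0.46, n = 12). It was 12.7%, 7.84% and 8.46% in M17_1, M16_1 and M2_A, but also 8.08% in M18_2a, where the contrast was -0.15. Whether these markers or the mitochondrial share have a part in the contrast was not tested.

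Over the 12 mice the S-phase index followed the mitotic index with Pearson r = 0.57 and Spearman rho = 0.48. Within genotypes r was 0.66 and rho 0.43 in APCMin/+ mice, and r was 0.50 and rho 0.09 in WT mice (n = 6 each). Without M2_A and M18_b, the mice farthest from the median mitotic index, r was 0.42 and without M17_1 it was 0.68. These values are given as a description of 12 libraries. For single genes, the median r over pairs was 0.58 between S-phase members, 0.63 between mitotic members and 0.37 between a member of each kind. The median member had r = 0.68 with the mean of the other members, and the median gene tested had r = -0.01 with the index. The list therefore varied as a group over these mice, with Cenpf (0.03), Cenpe (0.17) and Kif23 (0.25) as its loosest members. Cenpe is a motor of the kinetochore.

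The members did not vary by cell cycle phase alone. Ordered by the GC content of their longest annotated transcript, which spans 35% for Ccne2 to 58.3% for E2f1, members of high and of low GC content differed in how far, and in 6 of the 12 mice also in which direction, they lay from their mean over the mice. The 13 members of highest GC content were E2f1, Cdt1, Plk1, Cdc20, Ube2c, Foxm1, Uhrf1, Mcm7, Gins2, Ccne1, Mcm3, Aurkb and Mcm5, of both phases. The 13 of lowest GC content were Ccne2, Bub1, Nusap1, Kif11, Cenpe, Cenpf, Rrm1, Top2a, Ccnb1, Pcna, Mcm4, Rrm2 and Ccna2, again of both. The phases were not balanced, with a median GC content of 51.7% for S-phase and 47.8% for mitotic members. The split by GC content was looked for after the values had been seen, and it is given as a description.

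In the WT mouse M17_1 the high-GC members lay 0.68 below and the low-GC members 0.15 above their mean over the 12 mice, on the log2 scale. Plk1 was lowest of all mice there at 4.54 CPM, while Kif11, another spindle gene, was at 43.7 CPM, above 4 of the 5 other WT mice. The APCMin/+ mouse M8_2 showed the opposite order, with the high-GC members 0.59 and the low-GC members 0.19 above their mean. In M2_A the low-GC members were 0.39 above and the high-GC members 0.09 below it. The contrast of high-GC minus low-GC members ranged from -0.83 in M17_1, -0.48 in M2_A and -0.36 in M18_2a to 0.41 in M8_2. By genotype it was 0.10 ± 0.314 in APCMin/+ and -0.10 ± 0.441 in WT mice (SD, n = 6), a difference smaller than either SD.

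**Figure D4:**
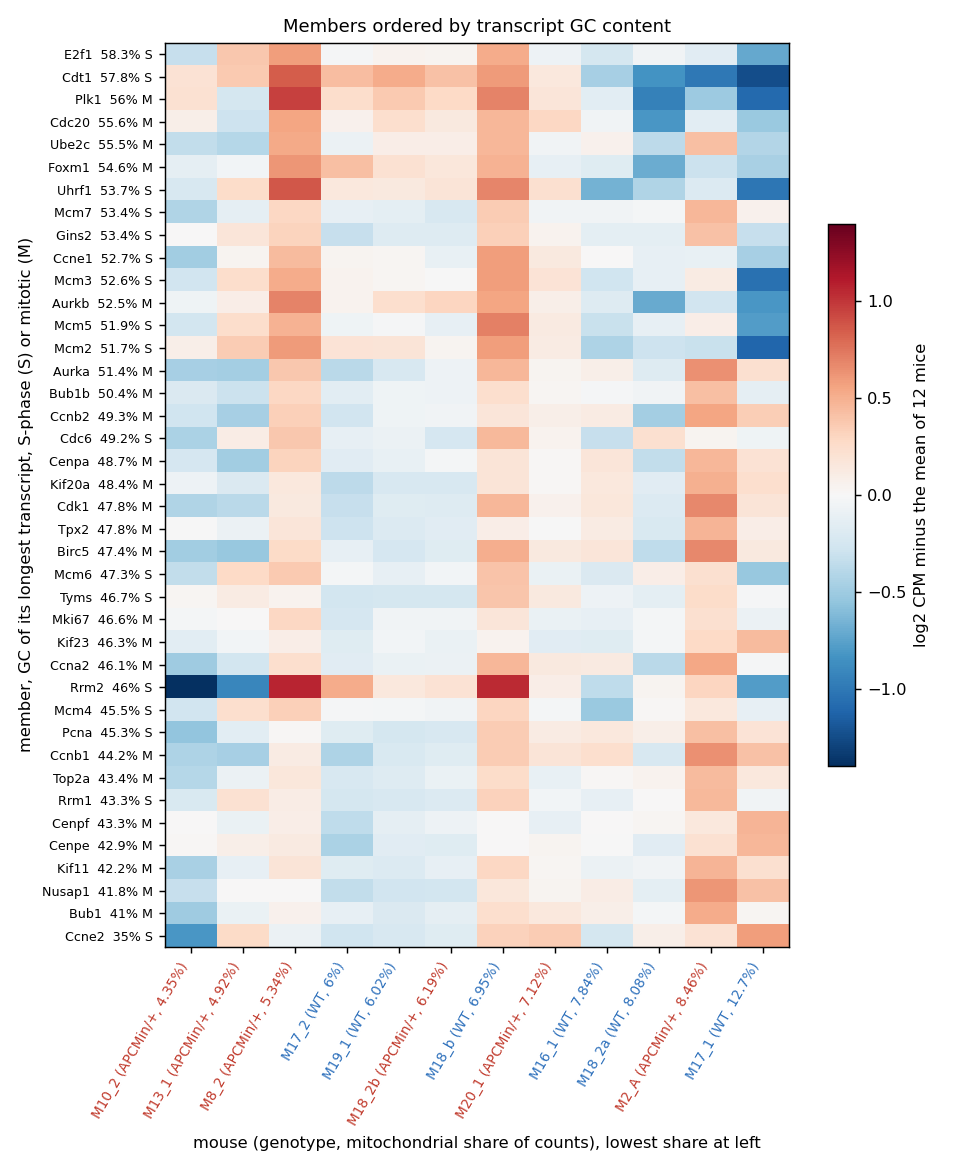
Log2 CPM of each member minus its mean over the 12 mice, with members from the highest transcript GC content (E2f1, 58.3%) at the top to the lowest (Ccne2, 35%) at the bottom and mice from the lowest mitochondrial share of counts (M10_2, 4.35%) at left to the highest (M17_1, 12.7%) at right. In M17_1, high-GC members such as Cdt1 and Plk1 are blue (low) while low-GC members such as Nusap1 and Ccne2 are red (high).

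The same contrast was present in genes at large. Between the median deviation of the tested genes of at least 52.7% GC and of those of at most 46.7% GC (the upper and lower tertiles), it ranged from -0.46 in M17_1 to 0.24 in M8_2 and M10_2. Over the 12 mice the contrast of the members followed that of all genes with r = 0.95 and rho = 0.95 (r = 0.88 in APCMin/+ and 0.98 in WT mice, n = 6 each, and 0.87 without M17_1 and M18_2a). It also moved with the share of counts on mitochondrial genes, which was 4.35% to 8.46% in APCMin/+ and 6.00% to 12.7% in WT mice (r = -0.92, rho = -0.87, n = 12, and r = -0.87 without M17_1 and M10_2). Whether the mitochondrial share has a part in this contrast was not tested. The index of all 40 members did not follow the mitochondrial share (r = -0.09, n = 12) or the log2 total count (r = 0.05, n = 12). The S-phase index minus the mitotic index had r = 0.46 and rho = 0.16 with the GC contrast of all genes (n = 12). Whether GC content has a part in that difference was not tested.

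**Figure D5:**
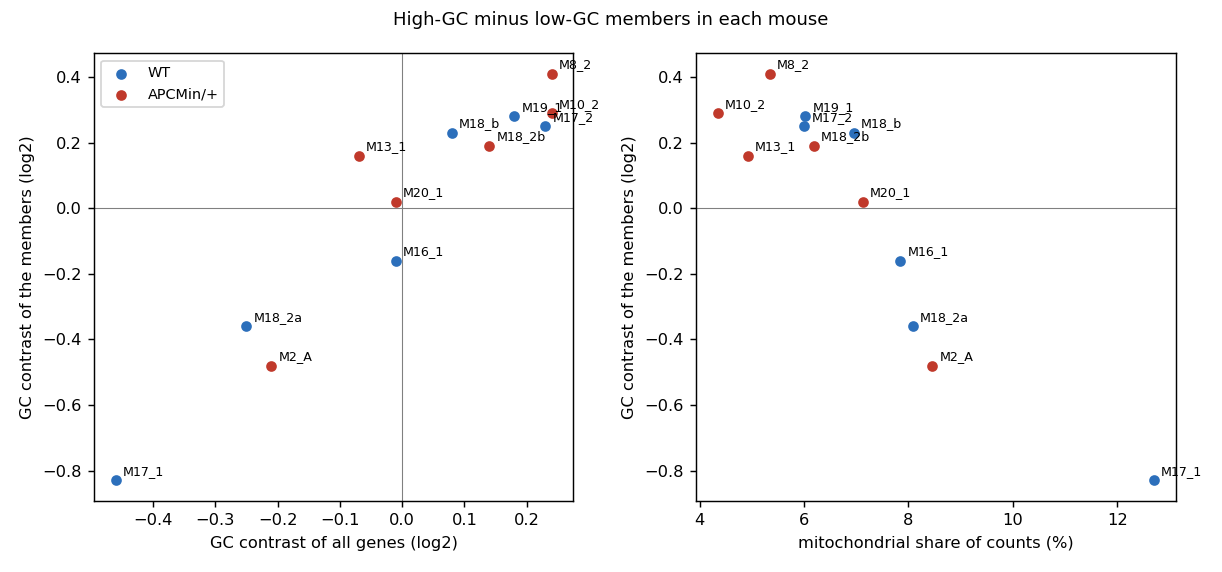
Mean deviation of the 13 high-GC members minus that of the 13 low-GC members in each mouse (log2), against the same contrast in all genes tested (left) and against the mitochondrial share of counts (right), coloured by genotype. M17_1 lies at -0.83 and 12.7% in the right panel, and the points of both genotypes descend together.

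After each mouse's trend of expression on GC content was removed, genes of unlike GC content agreed better. The median r between a high-GC and a low-GC member rose from 0.12 to 0.47, whereas that between high-GC members went from 0.69 to 0.61 and that between low-GC members from 0.60 to 0.58. The median r between S-phase and mitotic members went from 0.37 to 0.42. The genotype differences were 0.08 for the index, 0.10 for the S-phase index and 0.07 for the mitotic index after this correction, and 0 members were called. The correction did not remove the pattern in full, as the deviations of the 40 members still correlated with GC content within M17_1 (r = -0.49 across genes, -0.72 before) and within M8_2 (r = 0.51, 0.73 before).

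The tissue was checked with cell type markers. The samples are labelled as mucosa, and the summed CPM of the epithelial genes Epcam, Cdh1, Krt8, Krt18, Krt19, Vil1 and Cldn7 was 6510 to 11900, beside 4390 to 6960 for 6 smooth muscle genes, so that muscle RNA was present in every mouse. Of the 14 lists of cell type and position markers, surface colonocyte markers (Car1, Car4, Slc26a3, Aqp8 and Krt20, genes of cells that have left the cycle) had the highest correlation with the index, with r = 0.79 and rho = 0.81 on their mean log2 CPM (n = 12). The value was 0.95 in APCMin/+ and 0.72 in WT mice (n = 6 each), 0.84 without M17_1 and M18_b, and 0.61 when the log2 of the summed CPM was used. M18_b had the highest sum of these markers, 37600 CPM, and also the highest epithelial sum, 11900 CPM. Singly, Car4 went the other way (r = -0.37 with the index), while the others had r from 0.38 to 0.73. The sum was largely that of Car1, with means of 15700 CPM in APCMin/+ and 21300 CPM in WT mice, against at most 1500 CPM for the others. M10_2, with the lowest index, had the lowest colonocyte sum, 4420 CPM. The next lowest was 6510 CPM in M13_1, the other mouse with high posterior Hox genes, and without both r was 0.77. On the mean log2 CPM of these markers, however, M17_1 was lowest at 8.91 and M10_2 was at 9.66. The part of tissue composition in the index was not tested. The 6 crypt stem cell markers summed to 68.7 to 187 CPM in APCMin/+ and 88.8 to 141 CPM in WT mice, with r = -0.29 with the index. Lymphoid follicles also hold dividing cells. The summed B cell markers were 1.4 to 35.6 CPM in APCMin/+ and 1.70 to 9.72 CPM in WT mice, highest in M13_1, and the 4 germinal centre markers, of which 1 was at 0 in every mouse, summed to 5.49 to 8.41 and 3.74 to 7.43 CPM.

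Other genes of the cell cycle were examined in a list of 108, of which 107 were matched to a symbol of the tables and 106 were tested. None of the 106 passed the thresholds in edgeR's quasi-likelihood test in either direction. None had an unadjusted p under 0.05 in that test (backgrounds of 3.46% higher and 1.81% lower). DESeq2 called 0 of them, against 27 of all genes tested. The means were higher in APCMin/+ mice for 61 and lower for 45, with a median log2 fold change of 0.02. The lowest p was that of Ccnd2, a D-type cyclin, at 0.0605 (log2 fold change 0.51 ± 0.247 SE, FDR = 0.908, edgeR's quasi-likelihood test), with 201 ± 69.5 CPM in APCMin/+ and 142 ± 37.8 CPM in WT mice (SD, n = 6). Ccnd1, the D-type cyclin known as a Wnt target, was at 74.6 ± 9.95 and 71.0 ± 12.1 CPM, respectively. The CDK inhibitor gene Cdkn1a (p21) was at 212 ± 31.3 and 189 ± 59.2 CPM, and Cdkn1b (p27) at 107 ± 9.21 and 102 ± 6.75 CPM. By role, the means of all 8 kinetochore genes were higher in APCMin/+ mice with log2 fold changes of 0.02 to 0.19, of 14 origin genes 5 were higher and 9 lower, and of 18 fork genes 13 were higher and 5 lower. Of all genes tested, 9837 of 20311 had a higher mean in APCMin/+ mice. The kinetochore genes had r from 0.47 to 0.89 with the index over the 12 mice, so their means did not vary independently. The differences by role were counted and were not tested as sets.

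Outside the 40 members, the tested genes whose log2 CPM was most like the index over the 12 mice were Ncaph (r = 0.96), Fen1, Trip13, Klf6 and Rfc5 (0.92 each), Tacc3, Asf1b and Rnf24 (0.91 each), and Ccnf and Traip (0.90 each). The likeness is that of 12 libraries, and Ncaph, Fen1 and Rfc5 also stand in the list of other cell cycle genes. Of all genes tested, 99 had r above 0.8 with the index and 59 below -0.8. The log2 fold changes of the 10 genes between genotypes lay between -0.06 and 0.22, with FDR from 0.908 to 0.985 in edgeR's quasi-likelihood test.

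The whole series sets these values in context. Total counts on genes were 81730206 to 197914821 in APCMin/+ and 50313805 to 117477400 in WT mice, at which 3 counts equal 0.0152 to 0.0596 CPM (counting error only). Apc itself was counted at 164 to 216 CPM in APCMin/+ and 154 to 239 CPM in WT mice (log2 fold change 0.05, FDR = 0.947, edgeR's quasi-likelihood test), and these counts do not separate the truncated from the normal allele. The 2 most similar libraries, from M18_2b (APCMin/+) and M19_1 (WT), still differed by 4.43 times the sampling noise, so each mouse was counted as a sample of its own.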

How the data were processed

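RNA-Seq counts per gene were obtained for the proximal colon of 12 mice. The authors deposited 1 table of raw, unnormalized counts with gene lengths per mouse. Per the submitters' processing notes, reads were aligned to GRCm38.p2 with STAR 2.3.0 and counted with featureCounts. The study points to Ensembl for the genome. The annotation release and strand setting are not given in the sources used here. Symbols were matched for 37607 of 38924 identifiers. The 20311 genes that reached 10 counts in 3 or more mice were TMM-normalized (factors 0.906 to 1.1) and tested with edgeR 4.0.16 (quasi-likelihood, Benjamini-Hochberg) in R 4.3.3, after tests on simulated data. DESeq2 1.42.0 was an alternative. Log2 CPM used a prior count of 0.5, and the interval is at the 95% level. RPKM used the deposited lengths. GC content came from the longest GENCODE M21 transcript, for 98.6% of tested genes, and each mouse's lowess trend (span 0.3) was subtracted. This correction was chosen after seeing the data.

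The members, lists and marker genes were chosen with earlier results of these data known. Named genes were 21 members set by role, those with the 3 lowest p-values, 3 largest fold changes, and 3 highest and 3 lowest levels and SDs, members whose genotypes did not overlap, the 10 genes most like the index, and, of the other cell cycle genes, those with p under 0.05 and Ccnd1, Cdkn1a and Cdkn1b. Ccnd2, the promoter motif examples and the further members named were picked after their values were seen.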

Additional observations from a re-analysis of the deposited data

Results flagged for a closer look

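In 8 of 88 groups of 6 mice (40 members and 4 index measures, by genotype), 1 mouse lay farther from the others than Dixon's critical value at the 95% level allows. Chance flags about 1 in 20 groups, and the members are not independent of each other. 5 of the 8 concern the WT mouse M18_b, whose proliferation index was 4.75 while the other WT mice lay between 4.16 and 4.31. In this mouse Mcm7 (a helicase subunit) was at 48 CPM (others 34.4 to 39.3), Tyms (thymidylate synthase) at 32.5 CPM (others 20.7 to 24.4), Gins2 (a replication helicase component) at 7.25 CPM (others 4.63 to 5.26) and Bub1b (a spindle checkpoint gene) at 26 CPM (others 19.9 to 21.8). M18_b also had the highest summed epithelial and surface colonocyte markers of the 12 mice, and the part of these in its index was not tested.

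In the WT mouse M17_1, Kif23 (a motor of cytokinesis) was at 33.6 CPM, against 21.9 to 25.7 in the other WT mice. In APCMin/+ mice, Uhrf1 (a replication-coupled methylation factor) was at 36.9 CPM in M8_2 against 17.3 to 24 in the others, and Nusap1 (a spindle protein) at 39.1 CPM in M2_A against 20.4 to 26.2.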

How the results depend on the processing

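Members called numbered 0 under every alternative run (other size factors, DESeq2, edgeR's likelihood ratio test, no filter on low counts, each mouse left out, M10_2 and M13_1 left out, and GC correction), as did other cell cycle genes called. Over all genes, DESeq2 called 27 and the likelihood ratio test 15, against 0. Members with an unadjusted p under 0.05 numbered 0 to 2 when single mice were left out, the 2 being Tyms and Gins2 without the WT mouse M18_b. All genes with such a p numbered 524 (without M10_2) to 1828 (without M2_A) in these fits and 317 without M10_2 and M13_1, against 1071. The cause was not tested.

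The index difference lay between -0.07 and 0.18 over 19 settings, the S-phase difference between -0.04 and 0.24 and the mitotic difference between -0.09 and 0.18. Each was negative in 1 setting, relative to epithelial markers. The S-phase minus mitotic difference lay between -0.04 and 0.20, and changed sign in 3. The SD of the index in WT mice lay between 0.098 (without M18_b) and 0.266 when single mice were left out and the others scaled anew, and between 0.0625 and 0.241 with the scaling of the 12 mice kept, a setting chosen after seeing the data. Between 0 and 11 members changed sign in a setting. Among them was Birc5 (an inhibitor of apoptosis of the passenger complex), at 0.21 ± 0.192 (SE) without M10_2 and M13_1 against 0.00 ± 0.213 with all 12 mice. In the same setting Rrm2 was at 0.25 ± 0.315 against -0.12 ± 0.387. No paired analysis was possible because the labels do not give the shipment of a mouse or pair APCMin/+ with WT mice.

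Depth was not a limit for the members. With 6 mice per genotype, differences within the printed intervals cannot be told from 0. Genotype and cage cannot be told apart, the shipment of a mouse is not labelled, and muscle and other cells share the RNA.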
